A study of Mus musculus with 30 samples.

Results

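The 10 genes described here encode proteins that neutrophils store in their secondary (specific) granules, or chitinase-like and other secreted or surface proteins made alongside them: Camp, Ngp, Ltf, Lcn2, Fcnb, Wfdc21, Cd177, Chil3, Chit1 and Retnlg. They were chosen by symbol, and all 10 were among the 11383 genes of the deposited expression table. RNA of progenitors sorted from the bone marrow of wild-type mice was sequenced in 30 libraries, 3 biological replicates for each of 10 groups. The 6 naive groups were GMP (granulocyte-monocyte progenitor), MDP (which gives rise to monocytes and dendritic cells), cMoP (restricted to monocytes), GMP-MoP, and 2 stages on the neutrophil path, named proNeu1 and proNeu2. The other 4 groups were GMP, proNeu1, proNeu2 and GMP-MoP labelled LPS, 2 days. LPS is lipopolysaccharide, a component of the outer membrane of Gram-negative bacteria, and the labels say neither how it was given nor how many mice were pooled. The labels used here do not give the sort gates.

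Neutrophils make their granules in sequence while they mature in the marrow. Enzymes such as elastase and myeloperoxidase are made first and fill the primary granules. The secondary granule proteins follow from the myelocyte stage, when C/EBP-epsilon is active. Cathelicidin (Camp), lactoferrin (Ltf) and neutrophil gelatinase-associated lipocalin (Lcn2) kill microbes or withhold iron from them, and loss of C/EBP-epsilon in mice leaves neutrophils without these granules.

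Expression is given as FPKM, a fragment count divided by exon length and by depth, so levels can be compared between genes. The median library had 28.6 M assigned reads (lowest 23.6 M, highest 41.3 M). At the median depth 1 read was worth an FPKM of 0.0125 for Ltf, which has the greatest exon length of the 10, and 0.0806 for Wfdc21, which has the smallest. Irf8, a monocyte-lineage regulator, was at 371 ± 18.8 FPKM (SD, n = 3) in cMoP and 0.285 ± 0.0957 in naive proNeu2. Elane, which encodes neutrophil elastase, was at 7187 ± 190 in naive proNeu1, 1547.5 ± 150.3 in cMoP and 128 ± 7.42 in MDP. Marker lists did not all follow the labels. Monocyte marker sums were 4015 to 4110 FPKM in cMoP and 1664 to 2018 in naive proNeu2, but macrophage marker sums were 16.4 to 17.8 and 135 to 166. Naive GMP libraries also carried high levels of basophil, eosinophil and mast cell markers (13 of 15 measured), with sums of 18608 to 20590 FPKM against 20.5 to 29.2 in MDP. These are bulk samples, in which more cells of a type and more RNA per cell cannot be told apart.

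On GRCm38, Camp, Ngp and Ltf lie on chromosome 9 in that order, with 570.1 kb and 596.3 kb between neighbours and 8 and 5 other genes of the table in these gaps. Camp spans chr9:109847379-109849617 on the minus strand, Ngp chr9:110419747-110423012 and Ltf chr9:111019271-111042767 on the plus strand. Fcnb (chr2:28076378-28084885) and Lcn2 (chr2:32384633-32388252) lie on the minus strand of chromosome 2. Wfdc21 is at chr11:83746940-83752642 and Cd177 at chr7:24743983-24760311, Chil3 at chr3:106147554-106167564, Chit1 at chr1:134111242-134151540 and Retnlg at chr16:48872621-48874496. No annotated gene overlapped any of the 10. Chil3 is a case for caution, because 41.5% of its 31-base words recur in another annotated gene, chiefly Chil4 and Gm6522, and how the authors' counting treated such reads is not given in the sources used here. The shares were 6.93% for Cd177 and 5.51% for Retnlg, and 0 for the other 7 genes.

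The sequences before the start sites are shown for 5 genes that separated into different patterns below, Camp, Ngp and Ltf on one side and Fcnb and Chil3 on the other. They come from RefSeq promoter windows on GRCm38.p6, read 5′ to 3′ on the gene's strand, and stop where the GENCODE M21 gene begins if that is earlier than the RefSeq start. Capitals mark matches to the C/EBP pattern TTNNGNAA on either strand.
Camp, chr9:109849618-109849706, minus strand: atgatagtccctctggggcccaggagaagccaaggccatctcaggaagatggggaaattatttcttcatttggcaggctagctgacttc
Ngp, chr9:110419558-110419746, plus strand: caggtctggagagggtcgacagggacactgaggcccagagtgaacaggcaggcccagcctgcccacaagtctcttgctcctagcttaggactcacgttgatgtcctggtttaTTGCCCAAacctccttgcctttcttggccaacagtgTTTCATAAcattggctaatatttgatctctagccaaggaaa
Ltf, chr9:111019042-111019270, plus strand: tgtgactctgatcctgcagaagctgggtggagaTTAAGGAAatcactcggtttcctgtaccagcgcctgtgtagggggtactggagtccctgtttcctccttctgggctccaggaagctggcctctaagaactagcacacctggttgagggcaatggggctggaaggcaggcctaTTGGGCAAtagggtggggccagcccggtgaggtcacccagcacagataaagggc
Fcnb, chr2:28084886-28085128, minus strand: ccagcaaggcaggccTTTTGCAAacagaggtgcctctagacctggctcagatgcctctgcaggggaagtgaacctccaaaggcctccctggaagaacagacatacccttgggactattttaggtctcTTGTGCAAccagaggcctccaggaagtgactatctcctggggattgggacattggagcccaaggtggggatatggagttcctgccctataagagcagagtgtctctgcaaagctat
Chil3, chr3:106167565-106167814, minus strand: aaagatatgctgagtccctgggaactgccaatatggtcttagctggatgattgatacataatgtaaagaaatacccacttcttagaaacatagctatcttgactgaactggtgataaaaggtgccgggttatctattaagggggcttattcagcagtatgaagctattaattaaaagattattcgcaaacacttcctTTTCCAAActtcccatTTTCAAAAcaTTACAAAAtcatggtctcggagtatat
RefSeq windows were found for 9 of the 10 genes, not for Wfdc21. Over the full windows, 250 bases before to 50 after the RefSeq start, TTNNGNAA was present in 7 of the 9, against 40.7% of all 32851 windows. The PU.1 pattern GAGGAA was in 3 of 9 (28.3% of all windows) and the GFI1 pattern AAATCA in 2 of 9 (14% of all windows), each searched on both strands. Camp and Chit1 held none of the 3 patterns. The last C/EBP match of Ngp lies inside its GENCODE gene and is not printed. The GFI1 match of Ltf overlaps its first C/EBP match, and so does that of Chil3 its last one. A match is a stretch of letters, not evidence of binding.

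All 10 genes were highest in the neutrophil progenitors and together made up 3.27 ± 0.286% of the summed FPKM in naive proNeu1 and 3.25 ± 0.229% in naive proNeu2. The share was 0.0879 ± 0.0262% in naive GMP-MoP, 0.0657 ± 0.0478% in naive GMP, 0.0136 ± 0.000787% in cMoP and 0.000746 ± 0.000427% in MDP. The plot of all libraries shows this step for each gene.

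**Figure D1:**
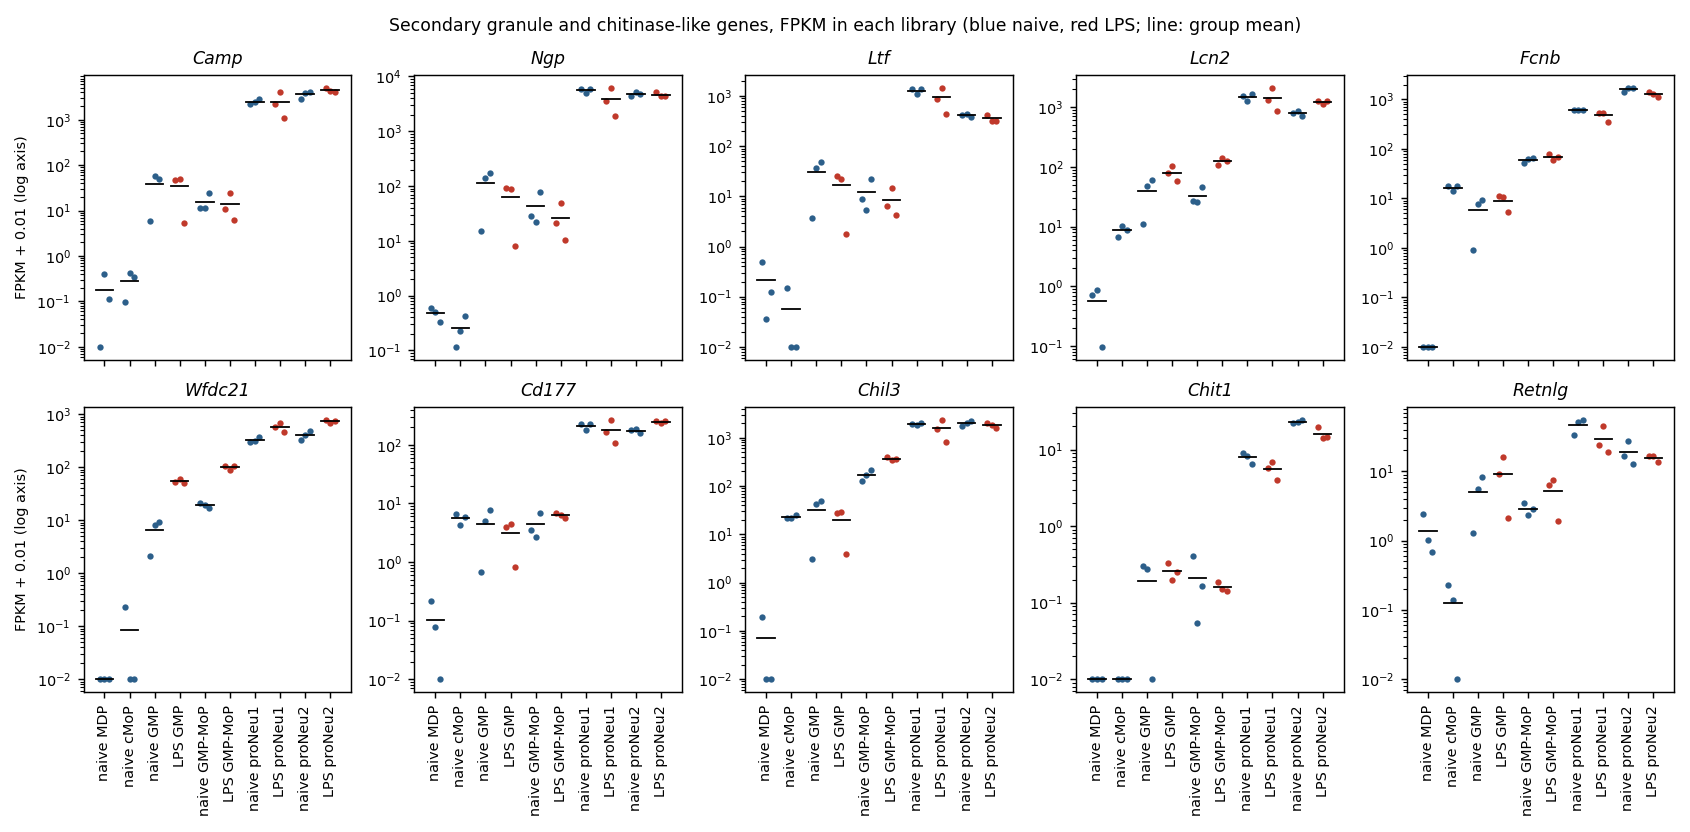
FPKM + 0.01 of each gene (log axis) in the 3 libraries of each group, blue for naive and red for LPS, with a line at the group mean. Every proNeu1 and proNeu2 library lies above every library of the other populations except for Retnlg, whose LPS GMP replicate 2 reached 16.001 FPKM.

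Ngp, which encodes a cystatin-related granule protein, was the most abundant of the 10 in naive proNeu1, at 5800.1, 4916 and 6026 FPKM in replicates 1, 2 and 3. Camp, the antimicrobial peptide precursor, was at 2221, 2488 and 2819 FPKM, and Ltf at 1370.4, 1079.5 and 1355 FPKM in the same libraries. The 3 libraries of this group thus lay close together for the classical secondary granule genes. In naive GMP the same genes were far lower, with Ngp at 15.1, 143 and 177 FPKM, Camp at 5.87, 58.9 and 49.8, and Ltf at 3.71, 36.8 and 49.3. Replicate 1 of naive GMP was far below the other 2 for each of the 3 genes. In naive GMP-MoP, Ngp was at 28.04, 22.3 and 78.7 FPKM, Camp at 11.1, 11.2 and 24.9, and Ltf at 8.75, 5.32 and 22.4, and the GMP-MoP and GMP libraries overlapped for all 3. In cMoP and MDP these genes were low, with 10 to 44 reads per gene over the 3 libraries of a group and none above 0.6 FPKM in any library.

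Lcn2, which binds bacterial siderophores, was at 1561, 1265 and 1643 FPKM in naive proNeu1, at 10.96, 47.0 and 60.003 in naive GMP and at 27.3, 25.3 and 46.2 in naive GMP-MoP. Unlike Camp, Ngp and Ltf, it was also present in cMoP, at 6.68, 10.4 and 8.83 FPKM. Fcnb, which encodes ficolin B, a lectin of the complement pathway, was at 607, 609 and 625 FPKM in naive proNeu1 and at 51.2, 62.6 and 65.5 in naive GMP-MoP. Its cMoP libraries, at 17.7, 14.04 and 17.5 FPKM, all lay above those of naive GMP, at 0.915, 7.54 and 9.26. Fcnb was listed at 0 in all 3 MDP libraries. Chil3, also called Ym1, a chitinase-like lectin without chitinase activity, was at 1916, 1836 and 2039 FPKM in naive proNeu1 and at 126, 168 and 217 in naive GMP-MoP. Naive GMP gave 3.06, 42.3 and 49.4 FPKM and cMoP 21.4, 21.97 and 25.6, so these groups overlapped for Chil3 and both lay below GMP-MoP.

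Wfdc21, a small secreted protein of the whey acidic protein family, was at 296, 314 and 368 FPKM in naive proNeu1, at 21.4, 19.4 and 16.9 in naive GMP-MoP and at 2.08, 8.20 and 9.37 in naive GMP. It had 3 reads in 1 cMoP library and was listed at 0 in the other 2 and in MDP. Cd177, a surface protein of neutrophils, was at 227, 181 and 230.2 FPKM in naive proNeu1, and its levels in cMoP (6.64, 4.31 and 5.89), naive GMP (0.667, 4.92 and 7.84) and naive GMP-MoP (3.54, 2.67 and 6.97) overlapped. Chit1, chitotriosidase, the one of the 10 known as an active chitinase, was the least abundant, at 8.93, 8.25 and 6.53 FPKM in naive proNeu1 and under 0.5 FPKM in every library outside proNeu1 and proNeu2. Retnlg, a resistin-like secreted protein, had the shallowest profile, at 33.3, 51.6 and 55.4 FPKM in naive proNeu1 and 1.27, 5.55 and 8.22 in naive GMP. It was also the one of the 10 whose MDP libraries, at 2.44, 1.00 and 0.670 FPKM, all exceeded those of cMoP, at 0.219, 0.128 and 0.

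The step from GMP to proNeu1 addresses how the genes change with neutrophil commitment. All 10 genes were called higher in naive proNeu1 than in naive GMP, where 4.09% of all 11383 genes were called higher and 8.35% lower. A call required that the limma p, adjusted over all genes by Benjamini-Hochberg, was under 0.05 and that the change was 2-fold or more. Fold changes are on log2(FPKM + 1), which understates the change of genes with low levels. Their SE comes from 1 fit of all 30 libraries. It reflects the spread of a gene pooled over the 10 groups, not that of the compared groups alone. The log2 fold changes ranged from 2.91 ± 0.14 (SE) for Chit1 (adjusted p = 8.29e-15) to 6.80 ± 0.36 for Fcnb (adjusted p = 3.59e-14). Camp rose by 6.50 ± 0.68 (adjusted p = 1.08e-08), Ngp by 6.22 ± 0.76 (adjusted p = 1.25e-07) and Ltf by 5.92 ± 0.72 (adjusted p = 1.38e-07). The median over the 10 was 5.77, against -0.14 over all genes. Elane, of the primary granules, rose by 2.25 ± 0.15 (adjusted p = 2.07e-12) in the same step. Dividing library values by median-of-ratios scaling moved the all-gene median from -0.14 to -0.01 and left the 10 calls in place.

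GMP-MoP set against proNeu1 gave the same count with another profile. All 10 genes were called higher in naive proNeu1, where 3.37% of all genes were called higher and 2.33% lower, with a median log2 fold change of 4.70 against -0.09 over all genes. The largest differences were for Camp, at 7.32 ± 0.68 (adjusted p = 3.18e-09), Ngp, at 7.20 ± 0.76 (adjusted p = 2.43e-08), and Ltf, at 6.80 ± 0.72 (adjusted p = 3.03e-08). Fcnb differed by 3.35 ± 0.36 (adjusted p = 4.3e-08) and Chil3 by 3.53 ± 0.63 (adjusted p = 6.42e-05). The comparisons of proNeu1 with GMP and with GMP-MoP share the naive proNeu1 libraries. Mpo, the primary granule peroxidase, was at 5364 ± 264 FPKM in naive GMP-MoP and 5617 ± 199 in naive proNeu1.

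Expressed as a share of the naive proNeu1 mean, naive GMP held 8 of the genes between 1% and 3%: Camp 1.52%, Chil3 1.64%, Ngp 2.00%, Wfdc21 2.01%, Cd177 2.10%, Chit1 2.33%, Ltf 2.36% and Lcn2 2.64%, with Fcnb at 0.962% and Retnlg at 10.7%. In naive GMP-MoP the mean shares ran from 0.627% for Camp, 0.771% for Ngp and 0.958% for Ltf, through 2.07% for Cd177, 2.21% for Lcn2 and 2.53% for Chit1, to 5.91% for Wfdc21, 6.13% for Retnlg, 8.81% for Chil3 and 9.74% for Fcnb. Replicate 3 of naive GMP-MoP was the highest for Camp, Ngp and Ltf, at 0.991%, 1.41% and 1.77%, and without it their mean shares were 0.444%, 0.451% and 0.555%. The Chit1 share rested on replicate 1, which held 20 of the 30 reads of that group, and was 1.27% without it. Elane stood at 78.4% in the same libraries. The plot of these shares shows the spread of replicate 1 in naive GMP and the profile of GMP-MoP.

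**Figure D2:**
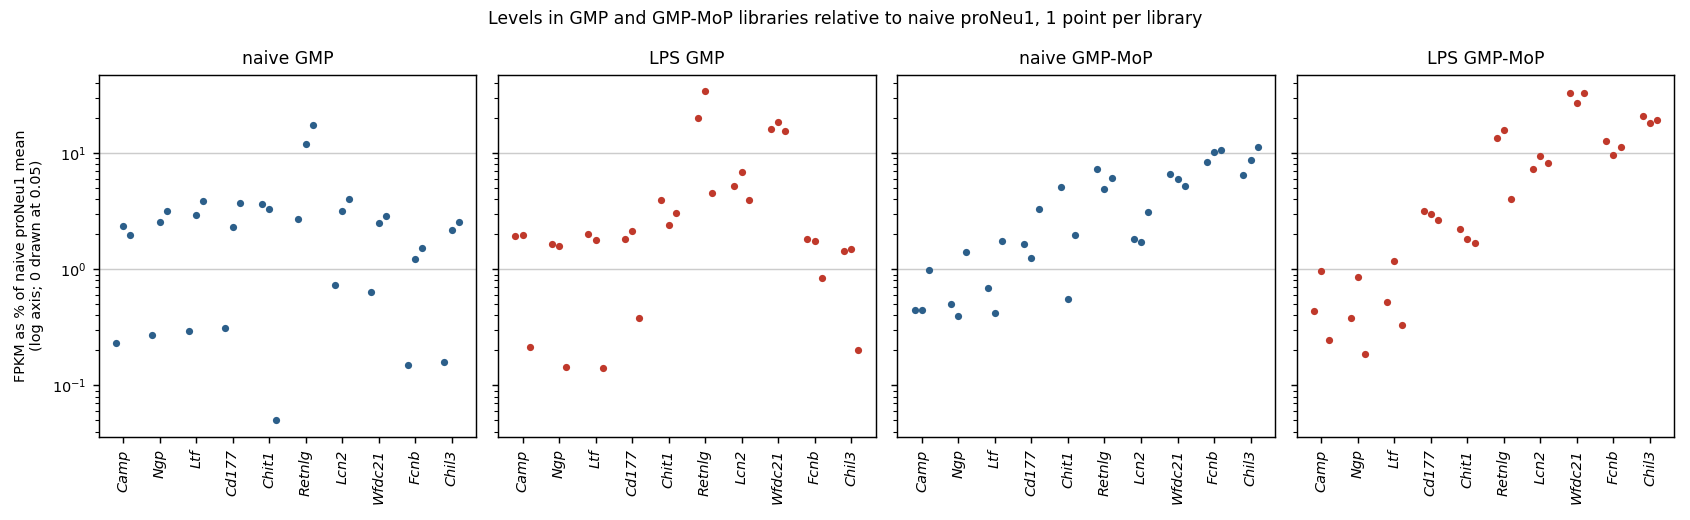
FPKM of each gene as a percentage of its naive proNeu1 mean (log axis), 1 point per library, in GMP and GMP-MoP, naive (blue) and LPS (red), with lines at 1% and 10%, and a value of 0 drawn at 0.05. In naive GMP-MoP the Fcnb and Chil3 points lie between 6.51% and 11.2% and those of Camp, Ngp and Ltf between 0.399% and 1.77%.

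The difference between GMP-MoP and GMP was called for 3 genes, all higher in GMP-MoP, where 2.02% of all genes were called higher. Fcnb was higher by 3.45 ± 0.36 (adjusted p = 1.74e-08), Chil3 by 3.01 ± 0.63 (adjusted p = 0.000331) and Wfdc21 by 1.60 ± 0.26 (adjusted p = 1.63e-05), all on the log2 scale by limma. With 1 library left out, Fcnb ran from 2.69 to 3.90, Chil3 from 1.84 to 3.65 and Wfdc21 from 1.04 to 1.92, and no call was lost. Camp, Ngp and Ltf had values of -0.82, -0.98 and -0.88 and were not called (adjusted p between 0.296 and 0.337). These 3 values rested on naive GMP replicate 1, without which they were -1.82, -2.08 and -1.95 and were called lower in GMP-MoP (adjusted p of 0.021, 0.0176 and 0.0192), beside 6.53% of all genes called lower with all libraries. The genes were also set against Camp within each library.
Ngp over Camp stayed within 1.02 to 3.55 in all 24 libraries of GMP, GMP-MoP, proNeu1 and proNeu2. Chil3 over Camp was 8.71 to 15.1 in naive GMP-MoP, 0.522 to 0.991 in naive GMP and 0.724 to 0.863 in naive proNeu1, and Fcnb over Camp was 2.63 to 5.61, 0.128 to 0.186 and 0.222 to 0.273. The Chil3 and Fcnb ratios of naive GMP-MoP thus did not overlap those of naive GMP or naive proNeu1, whereas its Ngp and Ltf ratios overlapped both. Wfdc21 over Camp (0.681 to 1.92, 0.139 to 0.355 and 0.126 to 0.133) and Cd177 over Camp (0.240 to 0.318, 0.0836 to 0.157 and 0.0729 to 0.102) did not overlap either. Cd177 itself overlapped naive GMP and was not called. Each ratio also depends on Camp, whose mean was 15.7 FPKM in naive GMP-MoP and 38.2 in naive GMP. In LPS GMP-MoP the ratios were 14.4 to 59.7 for Chil3 and 2.45 to 11.2 for Fcnb, overlapping those of naive GMP-MoP. Camp itself was at 11.1, 24.1 and 6.16 FPKM in these libraries, and the Chil3 ratios were 36.0, 14.4 and 59.7, lowest where Camp was highest.

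**Figure D3:**
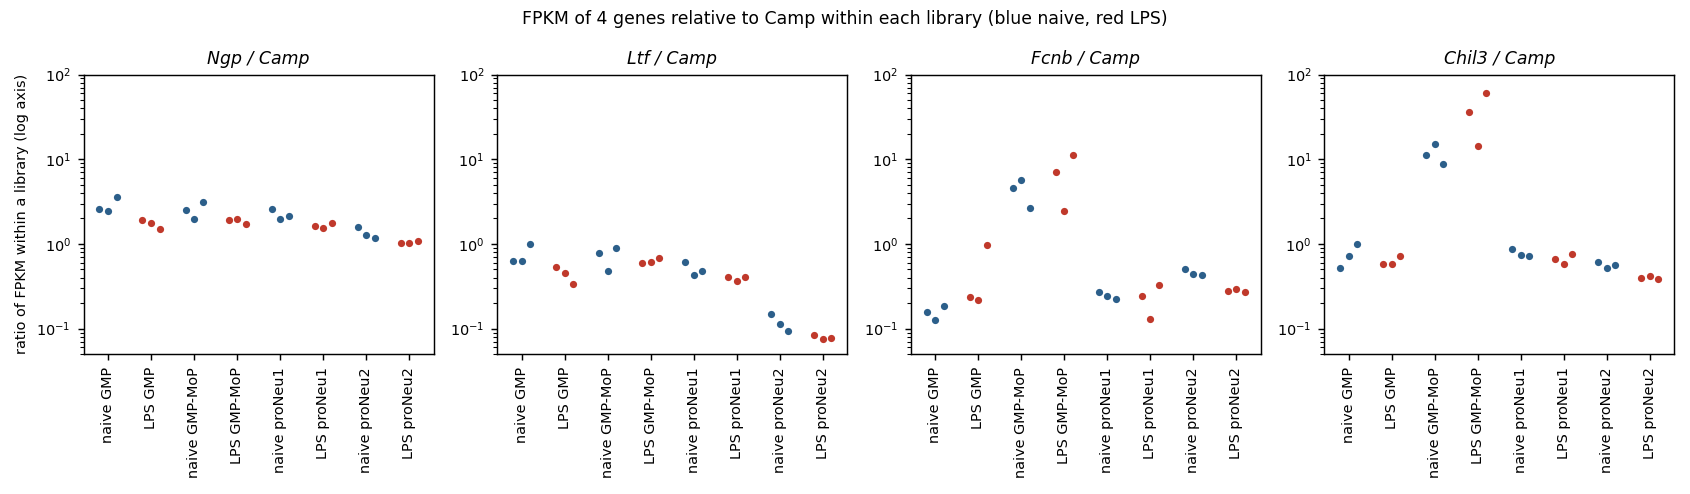
FPKM of Ngp, Ltf, Fcnb and Chil3 divided by that of Camp in the same library (log axis), 1 point per library, blue for naive and red for LPS. The Ngp ratio stays between 1.02 and 3.55, the Fcnb and Chil3 ratios are highest in GMP-MoP, and the Ltf ratio is lowest in proNeu2.

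In the monocyte direction, 4 of the 10 genes were called higher in cMoP than in MDP, where 3.38% of all genes were called higher and 4.16% lower. These were Chil3, at 4.50 ± 0.63 (adjusted p = 2.06e-06), Fcnb, at 4.12 ± 0.36 (adjusted p = 8.1e-10), Lcn2, at 2.66 ± 0.39 (adjusted p = 4.26e-06), and Cd177, at 2.59 ± 0.43 (adjusted p = 1.99e-05), by limma on log2(FPKM + 1). Chil3 had 7 reads in all MDP libraries together against 3449 in cMoP, and Fcnb 0 against 2108. With 3 reads in each MDP library as the floor, Fcnb was at least 185-fold higher in cMoP. Camp, Ngp and Ltf had 20, 31 and 12 reads over the 3 cMoP libraries. With voom on the recovered reads the count was 2, since Lcn2 (4.36 ± 2.04, adjusted p = 0.08) and Chil3 (9.55 ± 5.61, adjusted p = 0.167) lost their calls with larger values and larger errors. Over all genes voom called 517 higher there, against 385 by limma. Retnlg was lower in cMoP by a log2 value of -1.02 ± 0.51 (adjusted p = 0.103), and was called with a pseudocount of 0.1 (-2.74, adjusted p = 0.00136) and in the 2 groups alone (adjusted p = 0.0194).

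GMP-MoP lay above both of these populations. 8 genes were called higher than in MDP, all but Chit1 and Retnlg (3.99% of all genes called higher, 5.60% lower), and 8 higher than in cMoP, all but Chit1 and Cd177 (1.99% of all genes called higher, 2.62% lower). Against cMoP the largest value was that of Ngp, at 4.93 ± 0.76 (adjusted p = 1.01e-05), followed by Wfdc21 at 4.24 ± 0.26 (adjusted p = 3.74e-12). Fcnb was higher by 1.80 ± 0.36 (adjusted p = 0.000294), Lcn2 by 1.78 ± 0.39 (adjusted p = 0.000761) and Chil3 by 2.80 ± 0.63 (adjusted p = 0.000964), while Cd177 was at -0.36 ± 0.43 (adjusted p = 0.547). With voom 5 of the 10 were called in each of these comparisons. Over all genes voom called 606 higher against MDP and 431 against cMoP, where limma called 454 and 226. The calls of Camp, Ngp and Ltf were lost in both comparisons. Also lost were that of Chil3 against MDP (12.40 ± 5.60, adjusted p = 0.0634) and that of Retnlg against cMoP (5.04 ± 2.12, adjusted p = 0.0588). Against cMoP the voom values were 5.86 ± 3.49 for Camp, 7.30 ± 4.49 for Ngp and 9.34 ± 6.82 for Ltf, larger than on log2(FPKM + 1) but with larger errors, and against MDP the value of Ngp was 6.30 ± 3.82. Chit1, with 30 reads in GMP-MoP and 0 in MDP and cMoP, was gained in both (adjusted p of 0.0162 and 0.0135), and was also called with a pseudocount of 0.1. In MDP and cMoP, Camp, Ngp and Ltf had between 10 and 44 reads over 3 libraries. The 3 comparisons share libraries in pairs.

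Between proNeu1 and proNeu2 the set separated. Fcnb rose from 614 ± 9.79 to 1634 ± 178 FPKM, a log2 fold change of 1.41 ± 0.36 (adjusted p = 0.00452), with proNeu2 libraries at 1428.5, 1732 and 1742. Chit1 rose from 7.91 ± 1.24 to 23.1 ± 1.16 FPKM, at 1.45 ± 0.14 (adjusted p = 7.06e-08), with proNeu2 libraries at 22.2, 22.8 and 24.4. Across all genes 0.0966% were called higher in this step, 11 in number, and the groups did not overlap for either gene. Ltf went the other way, with proNeu2 libraries at 419, 448 and 382 FPKM, all below the lowest proNeu1 library at 1079.5. Its log2 value of -1.60 ± 0.72, with the pooled SE, did not reach a call (adjusted p = 0.0965), but was called by voom (adjusted p = 0.0144). A limma fit of these 2 groups alone also called Ltf, with a smaller error (-1.60 ± 0.11, adjusted p = 0.000678). Retnlg, at 16.4, 27.3 and 12.8 FPKM in proNeu2, had a value of -1.30 ± 0.51 (adjusted p = 0.0534) and was called by voom (adjusted p = 0.00362), in the 2 groups alone (adjusted p = 0.0212), with the replicate number as a block (adjusted p = 0.039), and without naive proNeu1 replicate 1 (adjusted p = 0.0462) or naive proNeu2 replicate 2 (adjusted p = 0.0417). Among all genes 1.25% were called lower, and of the 10 limma called 0. Before adjustment over all genes, the limma p was 0.0368 for Ltf, 0.0172 for Retnlg and 0.0306 for Lcn2. Lcn2, at 795, 858 and 722 FPKM in proNeu2, had a value of -0.91 ± 0.39 (adjusted p = 0.0838). Camp, Ngp, Wfdc21, Cd177 and Chil3 had values between -0.30 and 0.51, with no call. The ratio of Ltf to Camp was 0.0940 to 0.149 in naive proNeu2 and 0.434 to 0.617 in naive proNeu1.

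After LPS, Wfdc21 changed most. In GMP it went from 2.08, 8.20 and 9.37 FPKM to 52.8, 59.7 and 50.7, and in GMP-MoP from 21.4, 19.4 and 16.9 to 108, 87.8 and 107. The LPS libraries lay above all naive ones in both populations. The log2 fold changes by limma were 3.06 ± 0.26 in GMP (adjusted p = 2.29e-09) and 2.33 ± 0.26 in GMP-MoP (adjusted p = 8.68e-07). In proNeu1 Wfdc21 went from 296, 314 and 368 to 562, 674 and 464 FPKM, and in proNeu2 from 323, 401 and 487 to 784, 686 and 730.1. Here too the groups did not overlap, but the changes of 0.79 ± 0.26 (adjusted p = 0.0269) and 0.88 ± 0.26 (adjusted p = 0.0109) were under the fold of 2 needed for a call. Without naive proNeu2 replicate 3 the second was 1.02 (adjusted p = 0.00911) and was called. In LPS GMP several marker lists of other cells were lower too, with 7 of the 13 measured markers of basophils, eosinophils and mast cells called lower (sums of 7534 to 9120 FPKM, against 18608 to 20590 in naive GMP), 7 of 8 dendritic cell and MHC class II markers (61.5 to 143, against 542 to 1292), 7 of 10 erythroid and megakaryocyte markers (95.5 to 249, against 517 to 614), 5 of 8 macrophage markers (22.8 to 25.6, against 64.5 to 83.0) and 4 of 5 lymphoid markers (23.9 to 51.0, against 96.4 to 157). None of these lists had a gene called in LPS GMP-MoP, but their sums were already low in naive GMP-MoP, which left little room for a fall. In the same order, the naive GMP-MoP sums were 22.8 to 48.7, 8.06 to 10.1, 27.3 to 85.0, 14.6 to 16.2 and 18.8 to 22.9 FPKM. The part of these lists in the GMP values was not tested. As a share of the naive proNeu1 mean, Wfdc21 reached 16.7% in LPS GMP and 30.9% in LPS GMP-MoP.

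Lcn2 was the other gene called after LPS. In GMP-MoP it went from 27.3, 25.3 and 46.2 to 108, 141 and 123 FPKM, at 1.92 ± 0.39 (adjusted p = 0.000733), with no overlap. In GMP it went from 10.96, 47.0 and 60.003 to 77.7, 102 and 59.0 FPKM, at 1.26 ± 0.39 (adjusted p = 0.0103), and LPS GMP replicate 3 lay below naive GMP replicate 3. This call was lost without naive GMP replicate 1 (0.54, adjusted p = 0.155), without LPS GMP replicate 2 (1.07, adjusted p = 0.0552) and in the 2 groups alone (adjusted p = 0.106). Thus 2 of the 10 genes were called higher in GMP (0.914% of all genes higher, 3.04% lower) and 2 in GMP-MoP (0.720% higher, 0.413% lower). In proNeu1 and proNeu2 limma called 0 of the 10 genes in either direction, where 1.03% and 0.536% of all genes were called higher and 0.439% and 0.457% lower. Before adjustment over all genes, the limma p of Wfdc21 and Chit1 was 0.00627 and 0.00308 in proNeu1. In proNeu2 it was 0.00272 and 0.00179, and voom called 0 of the 10 in either population. Chit1 was lower after LPS in both by less than the fold needed for a call, at 8.93, 8.25 and 6.53 FPKM in naive and 5.72, 6.79 and 3.94 in LPS proNeu1, which overlapped (-0.47 ± 0.14, adjusted p = 0.0156) and at 22.2, 22.8 and 24.4 in naive and 19.6, 14.2 and 14.7 in LPS proNeu2, which did not (-0.51 ± 0.14, adjusted p = 0.00777). Lcn2 in proNeu2 was at 1271, 1119.6 and 1262 FPKM after LPS, all above naive proNeu2, at 0.62 ± 0.39 (adjusted p = 0.226).

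**Figure D4:**
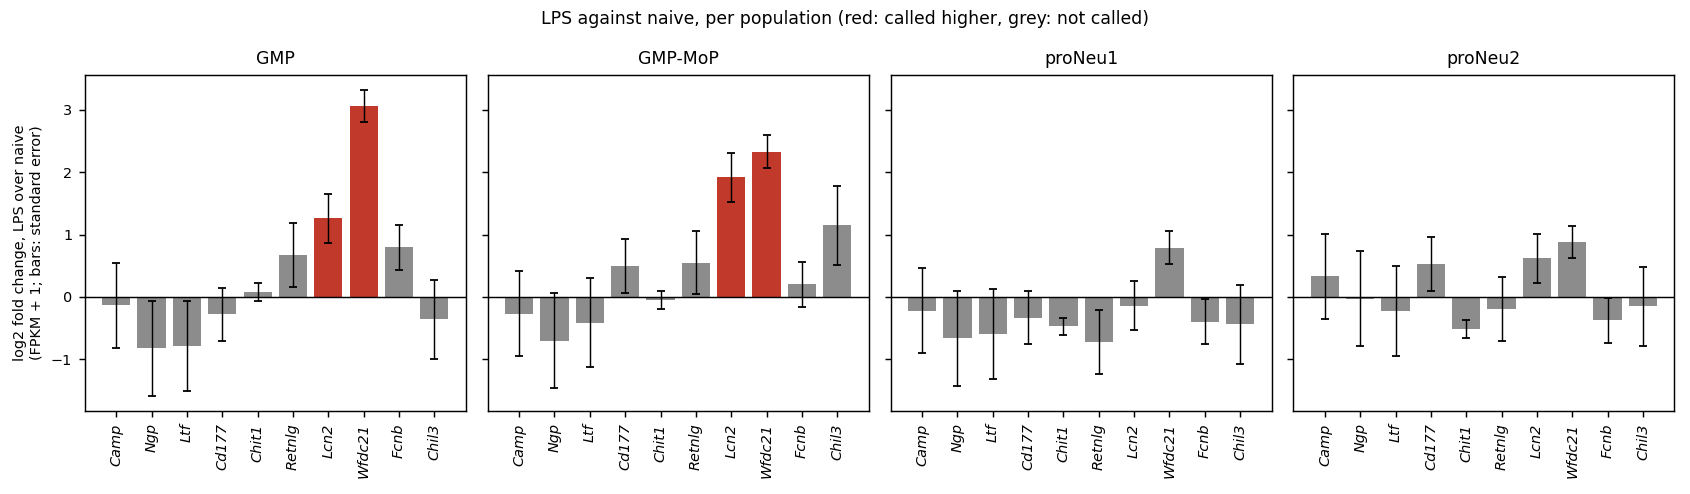
Log2 fold change of LPS over naive libraries on log2(FPKM + 1) for each gene in 4 populations, with the standard error of the limma fit, red where called higher and grey where not called. Wfdc21 and Lcn2 are red in GMP and GMP-MoP and no gene is red in proNeu1 or proNeu2.

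Chil3 in GMP-MoP went from 126, 168 and 217 to 398, 347 and 368 FPKM after LPS. All LPS libraries lay above the naive ones, at 1.15 ± 0.63 (adjusted p = 0.174). The gene was called by voom (adjusted p = 0.0337) and in the 2 groups alone, with a smaller error (1.15 ± 0.19, adjusted p = 0.0102). Fcnb in GMP-MoP, at 78.0, 59.1 and 68.9 FPKM after LPS, overlapped its naive libraries. Camp (11.1, 24.1 and 6.16), Ngp (21.2, 48.0 and 10.5) and Ltf (6.57, 14.8 and 4.18) did so too. The 10 genes together held 0.166 ± 0.00626% of the summed FPKM in LPS GMP-MoP, above all 3 naive libraries, whose highest was 0.118%.

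In GMP, the LPS values of the other 8 genes were not called, and their calls or signs turned on single libraries. Camp (-0.13, adjusted p = 0.889), Cd177 (-0.28, adjusted p = 0.617) and Chit1 (0.08, adjusted p = 0.656) stayed uncalled when any 1 library was left out, and each changed sign without at least 1 of them, with ranges of -1.14 to 0.85, -0.99 to 0.23 and -0.03 to 0.15. Ngp (-0.82), Ltf (-0.79) and Chil3 (-0.36) were not called (adjusted p between 0.387 and 0.67), were called lower without naive GMP replicate 1 (-1.92, -1.86 and -1.53, adjusted p of 0.03, 0.0276 and 0.013), and changed sign without LPS GMP replicate 3 (0.29, 0.26 and 0.50). Chil3 also changed sign without naive GMP replicate 2 (0.18) or 3 (0.28). Fcnb was at 11.2, 10.7 and 5.20 FPKM after LPS, at 0.80 ± 0.36 (adjusted p = 0.0707), and was called higher without LPS GMP replicate 3 (1.12, adjusted p = 0.0243), naive GMP replicate 2 (1.12, adjusted p = 0.0215) or naive GMP replicate 3 (1.25, adjusted p = 0.00668). Retnlg, at 9.29, 16.001 and 2.12 FPKM after LPS, was likewise called higher only without LPS GMP replicate 3 (1.36, adjusted p = 0.0268), at 0.67 ± 0.51 with all libraries (adjusted p = 0.289).

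The LPS effects of 2 populations were compared by interaction terms of the same fit. The effect on Wfdc21 was smaller in proNeu1 than in GMP by 2.27 ± 0.37 on the log2 scale (-2.27, adjusted p = 9.78e-05), and this was the 1 gene of the 10 called lower there, beside 0.510% of all genes called lower and 2.86% higher. Lcn2 had a term of -1.41 ± 0.56 (adjusted p = 0.0721) and Fcnb one of -1.20 ± 0.51 (adjusted p = 0.0964) in the same comparison, and Lcn2 was called with voom (adjusted p = 0.0232). Lcn2 was also called without naive GMP replicate 2 (-1.68), naive GMP replicate 3 (-1.86) or LPS proNeu1 replicate 2 (-1.74), and Fcnb without naive GMP replicate 2 (-1.51), naive GMP replicate 3 (-1.65) or LPS GMP replicate 3 (-1.52). GMP-MoP minus proNeu1 gave 2.07 ± 0.56 for Lcn2 (adjusted p = 0.122), 1.54 ± 0.37 for Wfdc21 (adjusted p = 0.0675) and 1.59 ± 0.90 for Chil3 (adjusted p = 0.746). limma called 0 of the 10 genes there (0.0615% of all genes higher, 0.158% lower). Before adjustment over all genes, its p was 0.00109 for Lcn2, 0.000356 for Wfdc21 and 0.0488 for Chit1. Lcn2 and Wfdc21 were called with voom (adjusted p of 0.0437 and 0.0112) and without LPS proNeu1 replicate 2 (2.40 and 1.68), and Wfdc21 in the 4 groups alone (adjusted p = 0.00738). GMP-MoP minus GMP gave -0.73 ± 0.37 for Wfdc21 (adjusted p = 0.161), 0.66 ± 0.56 for Lcn2 (adjusted p = 0.422) and 1.51 ± 0.90 for Chil3 (adjusted p = 0.237). Again limma called 0 (3.28% of all genes higher, 0.641% lower), and voom 0. The lowest limma p of the 10 before adjustment was 0.0616, for Wfdc21. Each of the 3 was called without 1 naive GMP library, Chil3 at 2.69 (adjusted p = 0.0042) and Lcn2 at 1.39 (adjusted p = 0.0158) without replicate 1 and Wfdc21 at -1.05 (adjusted p = 0.0327) without replicate 3. proNeu2 minus proNeu1 gave 0.09 ± 0.37 for Wfdc21 (adjusted p = 0.971). Of the 10, limma called 0 (0.0351% of all genes higher, 0.123% lower) and voom 0. The lowest limma p before adjustment was 0.168, for Cd177. The terms share the naive and LPS libraries of a population. Same-numbered LPS libraries of GMP, GMP-MoP and proNeu1 also varied together over all genes, which the terms did not take into account.

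Libraries of 1 group differed along the whole set. Naive GMP replicate 1 was the lowest of its group for 9 of the 10 genes, all but Chit1, where 32.6% of all genes were lowest in that library. LPS GMP replicate 3 was lowest for 9 genes (34.0% of all genes), and LPS proNeu1 replicate 3 for all 10 (32.1% of all genes), with replicate 2 of that group highest for 9 (28.8% of all genes). LPS proNeu2 replicate 1 was highest for all 10 (36.0% of all genes). Replicate 3 was lowest for 6 genes in LPS proNeu2 and 6 in LPS GMP-MoP (31.8% and 33.6% of all genes). In each LPS group it was highest for 0 of the 10 (30.3% to 40.0% of all genes). The labels do not say whether same-numbered libraries share mice or a day. In LPS proNeu1 the 10 genes summed to 10852, 17828 and 6064 FPKM in replicates 1, 2 and 3.

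S100a8 and S100a9, which encode calprotectin, moved with the set, with sums of 27749, 40651 and 17758 FPKM in LPS proNeu1 and 42.2, 469 and 639 in naive GMP. A list of 11 primary granule genes did not follow the same order in LPS proNeu1, with sums of 26460, 21223 and 25057 FPKM. In naive GMP their sums were 6463, 9028 and 9239 FPKM and in LPS GMP 16550, 15480 and 14204, lowest in the same libraries as the set, over a narrower range. Of a mature neutrophil list 11 of 16 genes were measured, none of them at 0 throughout GMP or proNeu1. They summed to 346, 365 and 300.2 FPKM in LPS proNeu1 and to 117, 123 and 130.5 in naive GMP. The order of libraries was that of the 10 genes in both groups, over a narrower range. In MDP, where the 10 genes summed to 1.30 to 4.62 FPKM, the list still held 189 to 207. Its range therefore does not show how many mature neutrophils were present. The sums of the 10 measured of 11 erythroid and megakaryocyte markers were 26.5, 169 and 22.2 FPKM in LPS proNeu1, and replicate 2 was also the highest of the other 3 LPS groups. The part of these markers in the spread of the 10 genes was not tested.

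**Figure D5:**
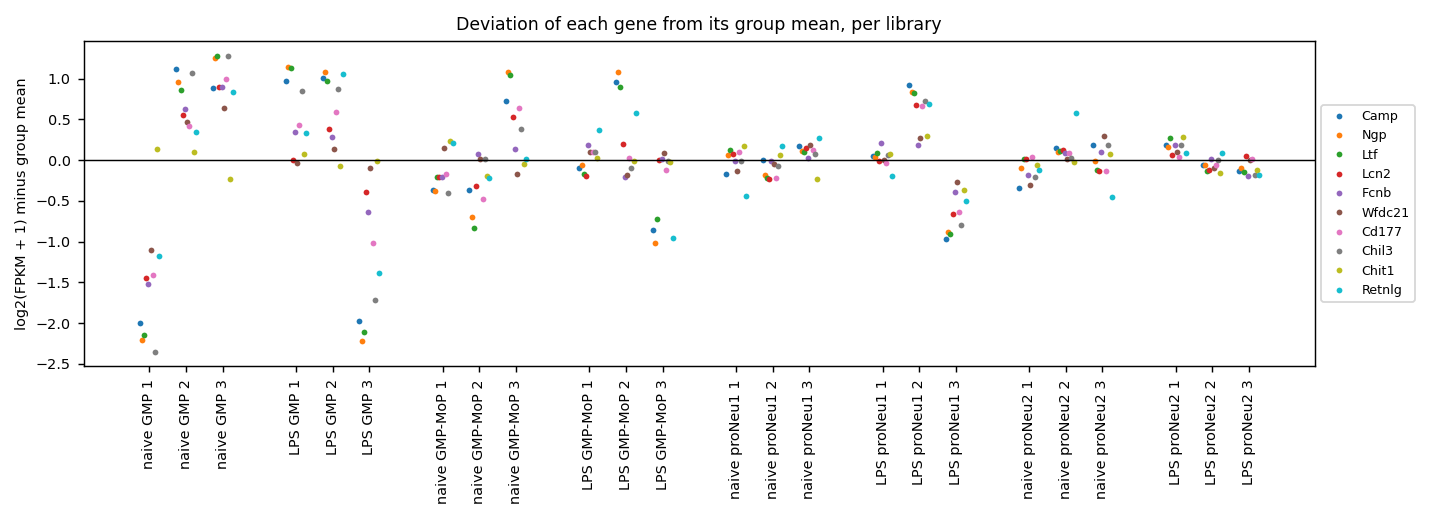
Deviation of each gene from its group mean on log2(FPKM + 1), per library, 1 colour per gene, for the groups of 4 populations. The genes of naive GMP replicate 1, LPS GMP replicate 3 and LPS proNeu1 replicate 3 lie mostly below 0 together, and naive proNeu1, naive proNeu2 and LPS proNeu2 are narrow.

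Over the 30 libraries Camp and Ngp had a Pearson correlation of log2(FPKM + 1) of 0.994 and Ngp and Ltf one of 0.990. The lowest among the 45 pairs was 0.746, between Fcnb and Retnlg. The libraries fall into groups with very different levels, so these values describe the shared step into proNeu1 and carry no p. The genes most like the summed set were Hsd11b1 (0.985), S100a8 (0.982), Rflnb (0.980), Fam160a2 (0.978) and Pygl (0.974). S100a9 was the closest other gene for Camp (0.984), Ngp (0.987), Ltf (0.968) and Retnlg (0.921), and S100a8 for Lcn2 (0.976). The nearest gene was Clec12a for Chil3 (0.962), Hsdl2 for Wfdc21 (0.981), Pilrb2 for Cd177 (0.978) and Septin5 for Chit1 (0.992).

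Other genes of the secondary and tertiary granules gave a mixed picture. Of 25 listed, 22 were measured, and 17 were called higher in naive proNeu1 than in naive GMP and 18 than in naive GMP-MoP, with none lower (4.09% and 3.37% of all genes called higher). Chil1, another chitinase-like gene, was at 56.8, 49.9 and 56.0 FPKM in naive proNeu1 and 0.692, 0.289 and 1.12 in naive GMP-MoP, a log2 fold change of 5.05 ± 0.25 (adjusted p = 5.62e-14), beside 7.32 for Camp and 3.53 for Chil3. Orm1, an acute-phase protein, differed by 3.92 ± 0.26 (adjusted p = 7.77e-12) and Olfm4, olfactomedin 4, by 3.87 ± 0.25 (adjusted p = 5.21e-12). In GMP-MoP against GMP 5 were called higher, among them Hp, which encodes haptoglobin, at 2.58 ± 0.12 (adjusted p = 4.06e-15) and Mcemp1 at 2.37 ± 0.13 (adjusted p = 1.05e-13), and 2 lower (2.02% of all genes higher, 6.53% lower). From proNeu1 to proNeu2 2 fell, Mmp9, the gelatinase of tertiary granules, by 1.84 ± 0.40 (adjusted p = 0.00111) and Ifitm6 by 1.67 ± 0.35 (adjusted p = 0.00075), where 1.25% of all genes were called lower.

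Among 10 regulators of the neutrophil lineage, Cebpe was at 108 ± 17.9 FPKM in naive GMP, 39.9 ± 6.96 in naive GMP-MoP, 224 ± 18.9 in naive proNeu1 and 5.05 ± 0.528 in cMoP. It was called lower in GMP-MoP than in GMP (-1.42 ± 0.13, adjusted p = 1.62e-09) and higher in proNeu1 than in GMP-MoP (2.47 ± 0.13, adjusted p = 1.19e-13). Gfi1, a repressor needed for neutrophil development, was at 100 ± 6.91 FPKM in naive proNeu1, 32.2 ± 3.64 in naive GMP-MoP and 26.6 ± 7.10 in naive GMP. Unlike Cebpe, it was not lower in GMP-MoP than in GMP, and the libraries of these 2 groups overlapped. Cebpb, the C/EBP factor associated with emergency granulopoiesis in mice, was called higher after LPS in all 4 populations, by 1.50 ± 0.08 in GMP (adjusted p = 8.94e-13), 1.48 ± 0.08 in GMP-MoP (adjusted p = 2.54e-11), 1.17 ± 0.08 in proNeu1 (adjusted p = 1.36e-09) and 1.32 ± 0.08 in proNeu2 (adjusted p = 1.1e-10). Wfdc17, the other measured WFDC gene besides Slpi, rose after LPS in GMP-MoP by 1.88 ± 0.34 (adjusted p = 0.000218) and in proNeu1 by 1.46 ± 0.34 (adjusted p = 0.00257). Its levels were low, at 2.00, 3.28 and 3.37 FPKM in LPS GMP-MoP and 0.548, 6.05 and 1.12 in LPS proNeu1. The proNeu1 call rested on LPS replicate 2, without which the value was 0.80 ± 0.24 (adjusted p = 0.0176), under the fold needed.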

How the data were processed

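Per the submitters' processing notes, the tools were Trimmomatic 0.38.0, STAR 2.7.8 and featureCounts 2.0.1, with the GRCm38 (mm10) genome; annotation release and strand setting are not given in the sources used here. The authors deposited FPKM values for 11383 genes, none with a mean below 1.00. The labels' protocols name a directional library kit.

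The FPKM of all 11383 genes came out as whole reads once 1 exon length per gene and 1 total per library were solved for (tolerance 0.02 reads, or 1e-07 of a count up to 0.1 reads). Counting error is all these depths describe. Replicates correlated at 0.981 to 0.994 across genes, and no 2 libraries were identical; the labels call them biological replicates without naming mice.

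The 10 genes, lists and tests were chosen with earlier results of these data known. limma 3.58.1 (R 4.3.3, intensity trend) was fitted to log2(FPKM + 1) of 30 libraries, 15 comparisons, with p-values adjusted over all genes; it was tested on simulated data. The filter, FPKM of at least 1 in 3 libraries, removed 0 genes. Alternatives were voom on recovered reads, a pseudocount of 0.1, a replicate block, scaling by median of ratios, the compared groups alone, no filter, and each library left out. All 10 genes were named; of each list up to 4 called genes with the largest change, the 5 genes most like the sum and 2 per gene were eligible. Python 3.11.15 was used with numpy 2.4.6, pandas 2.3.3 and matplotlib 3.10.9.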

Additional observations from a re-analysis of the deposited data

Results flagged for a closer look

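The LPS effect on Wfdc21 differed between proNeu1 and GMP by -2.27 ± 0.37 on the log2 scale (limma interaction term, adjusted p = 9.78e-05). It was flagged because the difference between the 2 populations was itself tested and passed. Mean levels rose from 6.55 to 54.4 FPKM in GMP and from 326 to 566 FPKM in proNeu1, and in both populations all 3 LPS libraries lay above all 3 naive libraries.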

How the results depend on the processing

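The counts for proNeu1 against GMP and against GMP-MoP were 10 under every alternative run. Voom called 2 genes higher in cMoP against MDP (4 by limma), 5 in GMP-MoP against MDP (8) and 5 in GMP-MoP against cMoP (8). Over all genes it called 517, 606 and 431 higher in these (385, 454 and 226 by limma). Voom called 2 lower in proNeu2 against proNeu1 (0), 2 lower for proNeu1 minus GMP (1) and 2 higher for GMP-MoP minus proNeu1 (0). Its numbers over all genes were 546, 127 and 4 (142, 58 and 7 by limma). The compared groups alone gave 1 lower in cMoP against MDP, 2 lower in proNeu2 against proNeu1, 1 higher in LPS GMP and 1 higher for GMP-MoP minus proNeu1, and a pseudocount of 0.1 gave 1 lower in cMoP against MDP and 9 higher in GMP-MoP against MDP and against cMoP (8 in each by limma at a pseudocount of 1). Voom and the groups alone each gave 3 higher in LPS GMP-MoP (2), with 175 and 75 of all genes called higher (82 by limma). Leaving out 1 library gave ranges of 0 to 3 lower in GMP-MoP against GMP, 0 to 1 lower in proNeu2 against proNeu1, 1 to 4 higher and 0 to 3 lower in LPS GMP, 0 to 1 higher in LPS proNeu2, 0 to 3 higher and 0 to 1 lower for GMP-MoP minus GMP, 1 to 3 lower for proNeu1 minus GMP and 0 to 2 higher for GMP-MoP minus proNeu1.

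Of the 84 fold changes recomputed, 7 changed sign when a library was left out: in LPS GMP, Camp ranged from -1.14 to 0.85, Cd177 from -0.99 to 0.23, Chit1 from -0.03 to 0.15, Ngp from -1.92 to 0.29, Ltf from -1.86 to 0.26 and Chil3 from -1.53 to 0.50, and Wfdc21 for proNeu2 minus proNeu1 from -0.06 to 0.24. The cause was not tested.

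With the replicate number as a block, 1 gene, Retnlg, was called lower in proNeu2 against proNeu1 (-1.30, adjusted p = 0.039), and no other count changed. The labels do not say that numbers pair libraries, and in no comparison of 2 groups did all 3 same-numbered pairs correlate above 0.1. Naive proNeu1 and naive GMP-MoP came close, at 0.186, 0.375 and 0.0973. Same-numbered LPS libraries of different populations correlated at 0.0875 to 0.404. All 3 pairs were above 0.1 for LPS GMP, LPS GMP-MoP and LPS proNeu1 against each other (0.156 to 0.404), groups that the interaction terms combine. The terms treated these libraries as independent. A block shared by naive and LPS libraries does not test a pairing of LPS libraries alone. Calls over all genes differed by more than 1.5 times in several comparisons, for example 142 lower in proNeu2 against proNeu1 by limma and 540 with a pseudocount of 0.1. Depth limits Camp, Ngp, Ltf, Wfdc21 and Chit1 in MDP and cMoP, where no group exceeded 44 reads. It also limits Lcn2, Cd177, Chil3 and Fcnb in MDP, with 39, 19, 7 and 0 reads, and Retnlg in cMoP, with 6.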
